A study of Mus musculus with 12 samples.

Results

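The genes described here are 37 genes of fatty acid oxidation and ketone body handling, chosen by their gene symbols. They cover the lipid-sensing receptor PPAR alpha (Ppara), proteins that bring fatty acids into the cell, the lipid droplet, the carnitine shuttle, mitochondrial and peroxisomal β-oxidation, and ketone body enzymes. All 37 symbols were found among the 24421 rows of the count tables. The study bred Man1a2 +/- mice carrying the Man1a2tm1.1Ahe allele, which lacks exon 2 of the gene for an α-mannosidase that trims N-glycans in the Golgi. Liver and lung were taken 30 to 60 minutes after birth, and poly(A) RNA of whole tissue was sequenced from 4 groups of 3 libraries each: WT liver, Man1a2-/- (null) liver, WT lung and null lung. The deletion is carried in every cell of the null pups, and the sources used here do not give sex or litter. The paper reports unexpanded alveoli and respiratory failure in null mice, and the part of this state in the values below was not tested. The study's methods give 3 newborn mice of each genotype as the source of both tissues, so the 3 libraries of a group stand for 3 animals.

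Fatty acids are taken up by carriers such as CD36, bound by fatty acid binding proteins and activated to acyl-CoA. Long-chain acyl groups cross into mitochondria on carnitine, are shortened by repeated cycles of dehydrogenation, hydration, dehydrogenation and thiolysis, and pass their electrons through the electron transfer flavoprotein to the respiratory chain. Peroxisomes shorten very long and branched chains with their own enzymes. In liver the acetyl-CoA formed can be turned into ketone bodies, which other tissues burn. At birth the milk-fed pup moves from glucose to fat as its main fuel, and PPAR alpha, a nuclear receptor that binds DNA with RXR, is known to switch on many of these genes.

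PPAR alpha with RXR binds a direct repeat of AGGTCA-like sites separated by 1 base, so the promoters of the genes were searched for it. RefSeq promoter windows (GRCm38.p6, 250 bases before to 50 after the start) were found for 31 of the 37 genes. A repeat of 2 AGGTCA units in the same direction with any 1 base between them, read on both strands, was in 0 of the 31, against 0.0481% of 27025 genes. The looser repeat of 2 AGGNCA units, also with any 1 base between them, was in 1 of the 31, against 0.451% of all genes. The unit AGGTCA alone was in 22.6% of the 31, against 18.1% of all genes. The strict repeat contains the unit and is itself a case of the looser repeat, so these counts overlap. The 1 gene holding the looser form was Fabp1, which encodes the liver fatty acid binding protein. Its match is shown because it is the only match to either repeat among the 31 promoters. It lies at chr6:71199812-71199824, 67 bases before the RefSeq start of Fabp1 and 15 bases before its start in GENCODE, with the repeat on the opposite strand of the gene and the matching bases in capitals.
Fabp1: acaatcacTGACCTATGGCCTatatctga
A match to letters is a description of the sequence, and binding was not measured.

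The libraries were checked before the genes were compared. They held 26759463 to 42914295 counts each, so that 3 counts were worth 0.0538 to 0.126 CPM, a gene's counts relative to the size of the library. Levels below are CPM scaled by the trimmed mean of M-values (TMM) over the 12 libraries. Man1a2 itself was at 54.2 to 87 CPM in WT liver, 48.2 to 53.7 CPM in null liver, 75.6 to 107 CPM in WT lung and 42.7 to 50.2 CPM in null lung. The counts cover the whole gene rather than the deleted exon, and the null libraries were below all WT libraries of their tissue. Livers carried hepatocyte markers (20 genes, 281000 to 422000 CPM in all). The library labelled null lung 1 held little of the summed markers of its label. Its 12 lung epithelium markers summed to 559 CPM against 21400 to 28900 CPM in the other 5 lung libraries. The surfactant gene Sftpc was at 26.6 CPM against 11900 to 17400 CPM, and Scgb1a1 at 189 CPM against 1500 to 2180 CPM. Not all 12 were as low. Foxj1, at 38.8 CPM, lay within the range of the others (29 to 53.5 CPM), and Hopx was at 185 CPM against 222 to 376 CPM. The 13 striated muscle markers of null lung 1 summed to 28200 CPM against 257 to 710 CPM, and its 12 fat-cell markers to 327 CPM against 28.9 to 55.1 CPM. Most of the fat-cell sum was Fabp4, at 270 CPM against 19.6 to 25.6 CPM. Ucp1 was at 14.5 CPM against 0.0221 to 0.203 CPM, while Adrb3 was lower, at 0.371 CPM against 2.95 to 8.88 CPM. The library labelled null liver 1 held 8460 CPM of striated muscle markers against 8.02 to 11 CPM in the other 5 livers, while its hepatocyte markers, at 326000 CPM, lay within the range of the others. Muscle and brown fat cells use fatty acids as fuel, and the part of this material in any gene's value was not tested. Results that rest on these libraries are given with and without them.

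**Figure D1:**
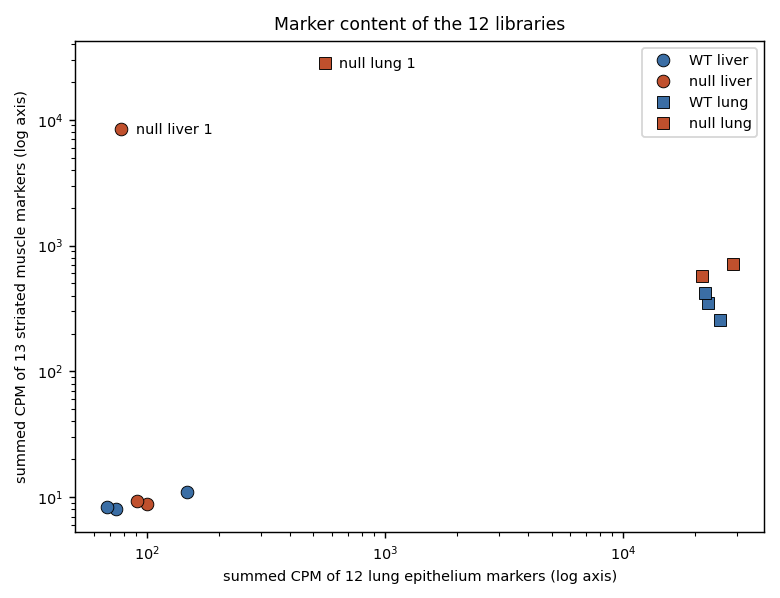
Summed CPM of 12 lung epithelium markers (horizontal, log axis) against summed CPM of 13 striated muscle markers (vertical, log axis), 1 point for each of the 12 libraries, circles for liver and squares for lung. The library labelled null lung 1 sits at 559 and 28200 CPM, away from the other 5 lung libraries, and null liver 1 sits at 8460 CPM of muscle markers, above the other 5 livers.

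The first comparison asked how these genes differed between null and WT liver. In null liver 13 of the 37 genes fell and 1 rose, by edgeR's quasi-likelihood test with a Benjamini-Hochberg adjusted p below 0.05 and a minimum change of 1.2-fold. The genes that fell sat in the carnitine shuttle (4 of 5), peroxisomal oxidation (3 of 4) and electron transfer (2 of 3). Others sat in lipid droplet and lipolysis (2 of 4), thioesterases (1 of 2) and uptake (1 of 4). None of the 11 enzymes of the mitochondrial β-oxidation cycle and none of the 3 ketone body enzymes passed the test by edgeR, where 1 of the former and 1 of the latter had an unadjusted p below 0.05. The lipase gene Pnpla2 was the 1 gene that rose. The share called was 37.8% of the 37 genes, against 26.9% of the 14343 genes tested in liver. Genes called lower made up 13.4% and genes called higher 13.5% of all genes tested. An unadjusted p below 0.05 was found for 22 of the 37, against 41.4% of all genes. The median log2 fold change (null against WT) was −0.31 over the 37 genes and 0.02 over all genes. WT and null libraries did not overlap in 25 of the 37, 21 lower and 4 higher in null, against 46.6% of all genes tested. These are bulk samples, in which fewer cells of a type and less RNA per cell cannot be told apart. Among other cell types, 3 of 10 neutrophil markers and 1 of 10 macrophage markers were called higher in null liver and none lower. Of 15 erythroid markers 13 were found in the counts, and the globin genes Hbb-bs, Hbb-bt, Hba-a1 and Hba-a2 read 0 in every liver. Of the 9 tested 1 was higher and 1 lower (3340 to 4170 CPM in WT and 2960 to 5180 CPM in null). Of 7 lung epithelium markers 0 were higher and 1 lower. The neutrophil markers summed to 2400 to 4830 CPM in WT and 3500 to 5450 CPM in null liver, and the part of these cells was not tested. Of the 20 hepatocyte markers 1 was called higher and 0 lower, and they summed to 281000 to 349000 CPM in WT and 302000 to 422000 CPM in null liver.

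**Figure D2:**
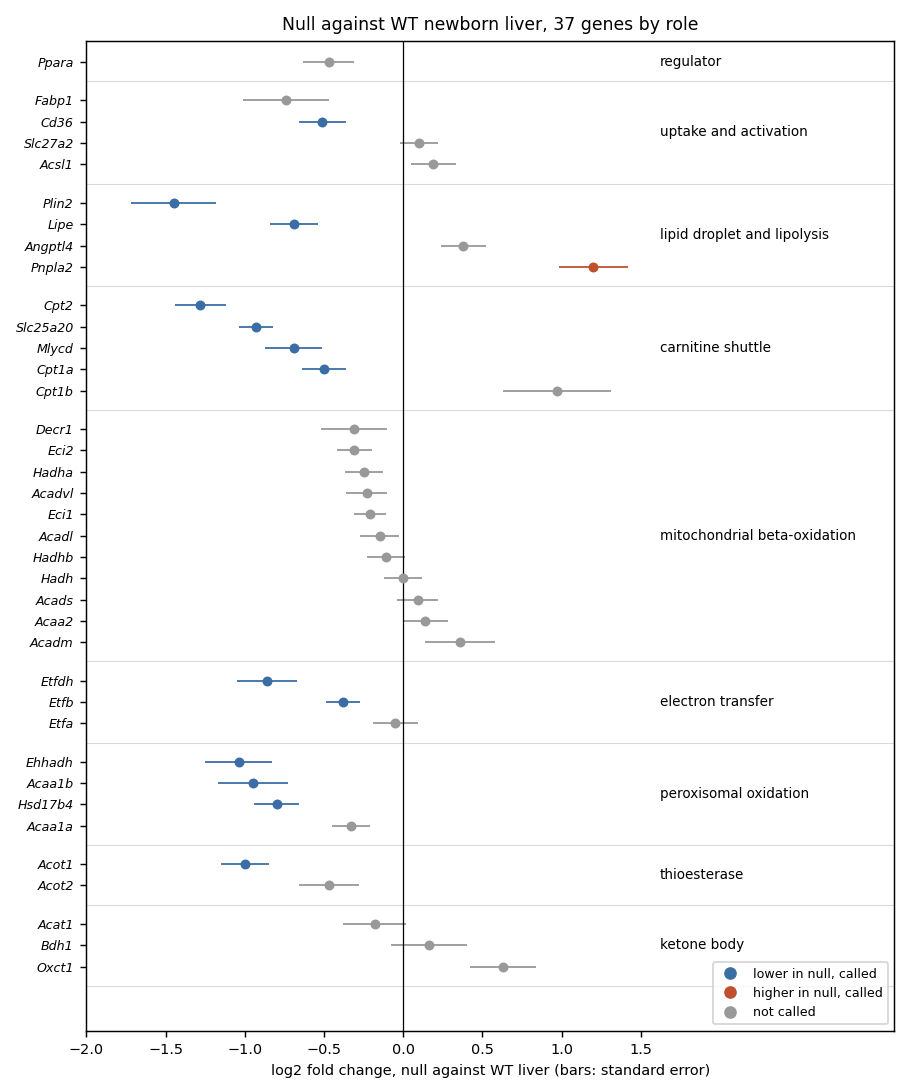
Log2 fold change of null against WT liver (horizontal) for the 37 genes, grouped by role, with bars for the standard error of the fit to 3 libraries of each genotype. The 13 genes called lower lie between −1.45 (Plin2) and −0.38 (Etfb), Pnpla2 lies at 1.2, and the 11 mitochondrial β-oxidation genes lie between −0.31 and 0.36.

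The receptor came first in the order of roles. Ppara, which encodes PPAR alpha, was at 313, 249 and 276 CPM in the 3 WT livers and 238, 167 and 201 CPM in the null livers. The highest null liver lay just under the lowest WT liver. Its log2 fold change was −0.47 (SE 0.16, edgeR adjusted p = 0.0634), which missed the threshold. Without null liver 1 it was −0.60 with an adjusted p of 0.0331 by edgeR, and it was not called when any of the other 5 livers was left out. Of 11 other settings, 5 called it lower, among them DESeq2 with all 6 livers. Another was edgeR with the replicate number as a block (−0.48, edgeR adjusted p = 0.0325). That number did not pair WT with null livers, where libraries of the same number had correlations of −0.024, −0.002 and 0.143.

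In the carnitine shuttle the muscle form was the 1 gene of 5 that did not fall. Cpt2, which releases acyl-CoA from carnitine inside the mitochondrion, was at 98.1, 113 and 105 CPM in WT and 35.5, 41.8 and 53.1 CPM in null liver. The lowest WT library was well above the highest null library, and the log2 fold change was −1.28 (SE 0.16, edgeR adjusted p = 0.00316). Slc25a20, the carrier that exchanges acylcarnitine for carnitine across the inner membrane, was at 133, 121 and 132 CPM in WT and 61.7, 73.4 and 67.8 CPM in null liver. The 3 libraries of each genotype lay close together, and the log2 fold change was −0.93 (SE 0.11, edgeR adjusted p = 0.00293). Cpt1a, the liver form of the outer-membrane enzyme that commits acyl groups to oxidation, was at 897, 739 and 811 CPM in WT and 624, 507 and 609 CPM in null liver. The groups did not overlap, but the change was smaller than that of Cpt2, at −0.50 (SE 0.14, edgeR adjusted p = 0.0331). Mlycd, which removes the malonyl-CoA that inhibits this enzyme, was at 101, 70.4 and 93.4 CPM in WT and 58.4, 62.7 and 43.9 CPM in null liver. It fell as well (−0.69, SE 0.18, edgeR adjusted p = 0.0292). Cpt1b, the muscle form, was near the limit of detection, with 0.633, 0.784 and 0.65 CPM in WT and 1.58, 0.839 and 1.64 CPM in null liver. It was not called (0.97, edgeR adjusted p = 0.0698), and 77.1% of its 75-base windows were shared with the read-through gene Gm44502, so its counts are uncertain.

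In peroxisomal oxidation, Ehhadh encodes the bifunctional enzyme of the straight-chain pathway. It was at 828, 968 and 685 CPM in WT and 292, 447 and 468 CPM in null liver (log2 fold change −1.04, SE 0.21, edgeR adjusted p = 0.0128). The null library with the least Ehhadh was null liver 1, and without it the value was −0.84. Hsd17b4, the second bifunctional enzyme, which also takes branched chains, was at 303, 327 and 286 CPM in WT and 149, 200 and 179 CPM in null liver. The genotypes did not overlap (−0.80, SE 0.14, edgeR adjusted p = 0.00752). The thiolase gene Acaa1b was at 201, 257 and 185 CPM in WT and 83.6, 147 and 103 CPM in null liver (−0.95, SE 0.22, edgeR adjusted p = 0.0202). Its near copy Acaa1a, at 132, 108 and 123 CPM in WT and 93.2, 98.1 and 97.9 CPM in null liver, was not called (−0.33). These 2 thiolases share sequence, 24.4% of the windows of Acaa1b and 9.5% of those of Acaa1a, so the counting could have split their reads.

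In electron transfer, Etfdh, which hands electrons from the flavoprotein to ubiquinone, was at 477, 656 and 423 CPM in WT and 246, 322 and 286 CPM in null liver (−0.86, SE 0.19, edgeR adjusted p = 0.015). Its 2 partners, the subunits of the flavoprotein, moved less. Etfb was at 287, 358 and 313 CPM in WT and 239, 255 and 243 CPM in null liver (−0.38, SE 0.11, edgeR adjusted p = 0.0446). Etfa was at 337, 417 and 326 CPM in WT and 311, 374 and 361 CPM in null liver, where the genotypes overlapped and the log2 fold change was −0.05. Etfb shared 39.6% of its windows with the overlapping gene Gm45233, and its call was lost when any of the 6 libraries was left out.

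The genes of the lipid droplet and lipolysis moved in opposite directions. Plin2, which coats the droplet, had the lowest log2 fold change of the 37. It was at 667, 901 and 850 CPM in WT and 192, 286 and 403 CPM in null liver (−1.45, SE 0.27, edgeR adjusted p = 0.00889). Null liver 1 was the lowest of the null livers, and without it the value was −1.21. Pnpla2, the lipase that starts triglyceride breakdown, was at 96.8, 60.1 and 80.1 CPM in WT and 177, 147 and 224 CPM in null liver. Every null liver was above every WT liver (1.2, SE 0.22, edgeR adjusted p = 0.00908). Lipe, the hormone-sensitive lipase, was low in liver, at 18.9, 14.7 and 16.8 CPM in WT and 11.4, 9.86 and 10.1 CPM in null (−0.69, SE 0.15, edgeR adjusted p = 0.0153). Angptl4, a secreted inhibitor of lipoprotein lipase, was at 246, 191 and 230 CPM in WT and 288, 266 and 320 CPM in null liver. The null livers lay above the WT livers, but it was not called (0.38, edgeR adjusted p = 0.0831).

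Of the thioesterases, which split acyl-CoA back to the free acid, the cytosolic Acot1 was at 79.1, 58.2 and 59.2 CPM in WT and 33.9, 30 and 34.7 CPM in null liver. The null livers lay close together and well under the WT livers (−1.0, SE 0.15, edgeR adjusted p = 0.00484). The mitochondrial Acot2, at 25.1, 18.7 and 23.1 CPM in WT and 12.7, 18.6 and 17 CPM in null liver, was not called (−0.47). Acot1 shared 15% and Acot2 21.2% of its windows with other genes, mostly with each other.

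For uptake and activation, Cd36 was at 193, 201 and 160 CPM in WT and 152, 129 and 109 CPM in null liver (−0.51, SE 0.15, edgeR adjusted p = 0.0396). Fabp1 varied more among the WT livers than between genotypes, at 859, 1880 and 1050 CPM in WT and 725, 826 and 709 CPM in null. Every null liver lay below every WT liver, but Fabp1 was not called (−0.74, SE 0.27, edgeR adjusted p = 0.074). The very long-chain acyl-CoA synthetase Slc27a2 was at 731 to 881 CPM in WT and 841 to 907 CPM in null liver, and the long-chain acyl-CoA synthetase Acsl1 at 1560 to 2030 CPM in WT and 1910 to 2100 CPM in null. Their genotypes overlapped, with log2 fold changes of 0.10 and 0.19.

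None of the 11 genes of the mitochondrial cycle passed the test. The acyl-CoA dehydrogenases, which take the first step for chains of different length, had log2 fold changes of −0.23 (Acadvl), −0.15 (Acadl), 0.36 (Acadm) and 0.09 (Acads). Acadm was at 531, 454 and 366 CPM in WT and 430, 600 and 703 CPM in null liver, so that null liver 1 lay within the WT range and the other null livers above it. The subunits of the trifunctional protein, which carries the next steps for long chains, were at −0.25 (Hadha) and −0.11 (Hadhb). Hadha was at 542, 637 and 506 CPM in WT and 450, 493 and 470 CPM in null liver. The short-chain dehydrogenase Hadh was at 0.00 and the thiolase Acaa2 at 0.14. The auxiliary enzymes for unsaturated chains were at −0.21 (Eci1), −0.31 (Eci2) and −0.31 (Decr1). The standard errors of these 11 values ran from 0.10 to 0.22 on the log2 scale, and the lowest edgeR adjusted p was 0.0767 (Eci2). Hadhb shared 16.7% of its windows with other genes, mostly Gm13910.

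The ketone body genes were not called. Acat1, the mitochondrial thiolase that joins or splits acetoacetyl-CoA, was at 840 to 1130 CPM in WT and 612 to 961 CPM in null liver (−0.18). Bdh1, which interconverts acetoacetate and β-hydroxybutyrate, was at 232 to 357 CPM in WT and 224 to 376 CPM in null liver (0.16). Oxct1, with which other tissues use ketone bodies, was at 30.7, 41 and 34.5 CPM in WT and 75.4, 45.4 and 43.5 CPM in null liver. The highest of these was null liver 1, the library with muscle markers. The log2 fold change of Oxct1 was 0.63 (edgeR adjusted p = 0.0649) with this library and 0.34 without it.

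**Figure D3:**
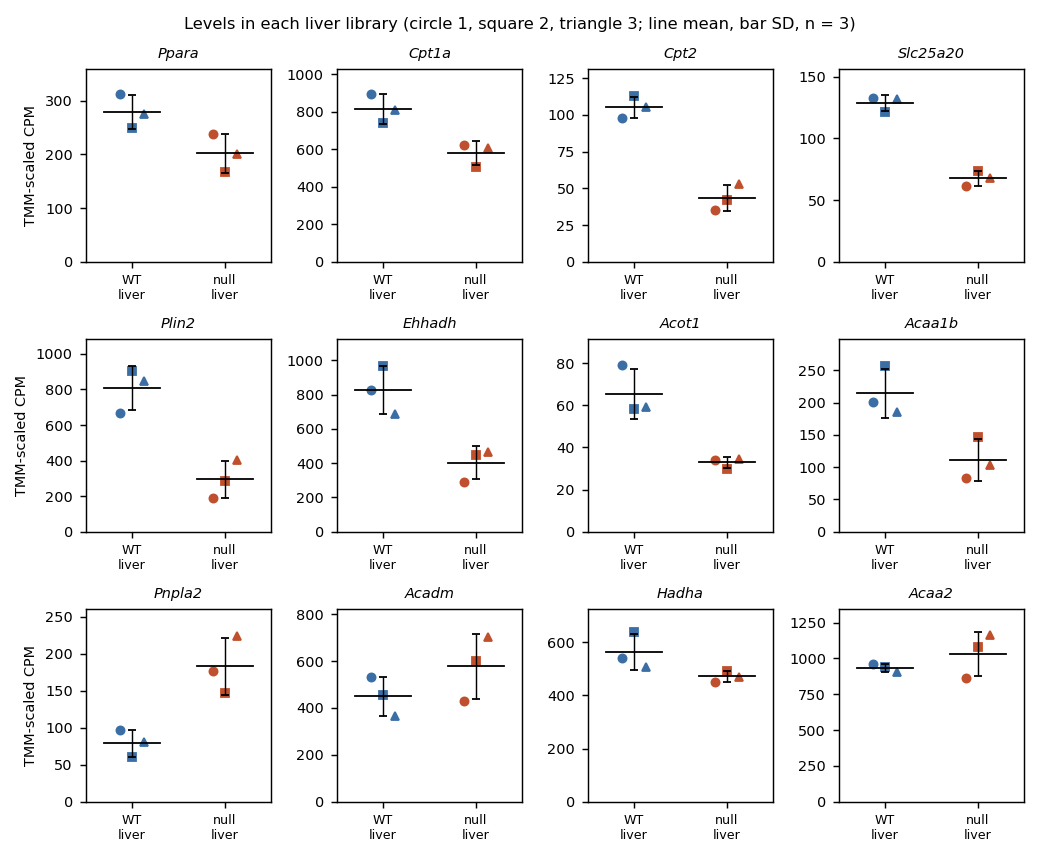
TMM-scaled CPM (vertical, from 0) of 12 of the genes in the 3 WT and 3 null livers, with circle, square and triangle for libraries 1, 2 and 3, a line for the mean and a bar for the SD (n = 3). Cpt2, Slc25a20, Plin2, Ehhadh and Acot1 are lower in every null liver than in any WT liver, Pnpla2 is higher in every null liver, and Acadm and Acaa2 overlap.

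The livers differed among themselves in the same genes. The 37 genes summed to 14600, 16170 and 13560 CPM in the WT livers and 11270, 13000 and 13340 CPM in the null livers. Null liver 1 was the lowest null library for 26 of the 37 genes, and WT liver 3 the lowest WT library for 18. Without null liver 1, 13 genes were still called lower and 1 higher. The median log2 fold change was then −0.21 over the 37 genes and −0.01 over all genes. Closer to WT than with it were Cpt2 (−1.14), Slc25a20 (−0.86), Acaa1b (−0.77), Etfdh (−0.76) and Hsd17b4 (−0.68). Further from WT were Pnpla2 (1.24), Acot1 (−1.01), Lipe (−0.74), Mlycd (−0.72), Cd36 (−0.63) and Cpt1a (−0.54). Ppara then joined the genes called lower and Etfb dropped out. Of the 14 calls, 8 held whichever of the 6 libraries was left out: Plin2, Pnpla2, Cpt2, Slc25a20, Etfdh, Ehhadh, Hsd17b4 and Acot1. Cpt1a and Mlycd lost their calls without WT liver 1 or without WT liver 3, and also without null liver 2 for Cpt1a and without null liver 3 for Mlycd. Lipe lost its call without WT liver 1 or WT liver 3, Acaa1b without WT liver 1, WT liver 2 or null liver 3, and Cd36 without any library but null liver 1. The number of genes called was 9 without WT liver 1 and 9 without WT liver 3. The counts from fits that left out a liver were not set against the share of all genes called in the same fit.

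The wider pathway was followed with 121 further genes, among them other PPAR alpha targets, cofactors, transporters and peroxisomal enzymes. In null liver 28 of the 114 tested fell and 19 rose, against 13.4% lower and 13.5% higher of all genes tested, and their median log2 fold change was 0.00. The share that rose was therefore near that of all genes. Of the PPAR alpha targets 11 of 23 fell and 2 rose, and of the peroxisomal genes 5 of 15 fell and 1 rose. Of the receptors and cofactors 2 of 16 fell and 6 rose. Of the further ketone body genes 3 of the 5 tested fell and 0 rose. Fgf21, a hormone secreted by liver under PPAR alpha, had the lowest log2 fold change. It was at 1.51, 2.02 and 5.95 CPM in WT and 0.0377, 0.28 and 0.0841 CPM in null liver, from 1 to 8 counts in the null libraries (−4.48, SE 0.78, edgeR adjusted p = 0.00758). G0s2, a small protein that inhibits the lipase encoded by Pnpla2, was at 199, 385 and 242 CPM in WT and 14, 82.8 and 67.2 CPM in null liver (−2.32, SE 0.59, edgeR adjusted p = 0.026). The fatty acid ω-hydroxylase Cyp4a14 was at 1110, 1660 and 1030 CPM in WT and 236, 345 and 183 CPM in null (−2.31, SE 0.28, edgeR adjusted p = 0.00292). All 3 were lower in each null liver than in any WT liver, and they stayed called without null liver 1, at −4.03, −1.86 and −2.25.

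Among the wider genes called higher, the 3 with the highest log2 fold changes were Txnip, Lpin1 and Ppargc1b. Txnip, an inhibitor of thioredoxin, was at 546, 381 and 704 CPM in WT and 2190, 1830 and 3640 CPM in null liver (2.23, SE 0.32, edgeR adjusted p = 0.00463). Lpin1, a phosphatidate phosphatase that also serves PPAR alpha as a cofactor, was at 291, 62.5 and 122 CPM in WT and 652, 563 and 1030 CPM in null (2.23, SE 0.54, edgeR adjusted p = 0.0226). Ppargc1b, a coactivator of the PPARs, was at 5.91, 3.72 and 6.09 CPM in WT and 20.6, 18.6 and 28.1 CPM in null (2.09, SE 0.25, edgeR adjusted p = 0.00301). The WT livers differed widely in Lpin1, yet none reached the lowest null liver.

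The second comparison asked the same of lung. With all 6 lung libraries, 0 of the 36 genes tested were called by edgeR, against 0.327% of the 15591 genes tested, with 0.0898% called higher and 0.237% called lower. An unadjusted p below 0.05 was found for 9 of the 36, against 25% of all genes. DESeq2 called 3 higher and 3 lower, against 7.32% and 7.8% (15.1% in all) of the genes to which it gave an adjusted p. Cpt1b was below the filter on low counts. The median log2 fold change was 0.17 over the 36 genes and 0.06 over all genes. WT and null lungs did not overlap in 11 of the 36, 4 higher and 7 lower in null, against 36% of all genes tested.

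The 4 genes with the lowest p were Cpt1a, Hsd17b4, Acsl1 and Pnpla2. Cpt1a was at 150, 149 and 166 CPM in WT lung and 66, 87.9 and 82.1 CPM in null lung. Every null lung was lower than every WT lung, with a log2 fold change of −0.98 (SE 0.15, edgeR adjusted p = 0.0548). Hsd17b4 was at 86, 88.1 and 91 CPM in WT and 43.1, 58.5 and 60.8 CPM in null lung (−0.71, edgeR adjusted p = 0.0827). Acsl1 was at 36.4, 43.7 and 40.2 CPM in WT and 150, 80 and 69.4 CPM in null lung (1.32, edgeR adjusted p = 0.0911). The highest Acsl1 level was in the library labelled null lung 1, but the other null lungs were above the WT lungs as well. Pnpla2 was at 74.8, 72.8 and 73 CPM in WT and 103, 171 and 233 CPM in null lung (1.2, edgeR adjusted p = 0.0915). Here null lung 1 was the closest of the 3 to WT. These 4 genes were among the 6 that DESeq2 called, with Acot2 lower and Bdh1 higher as the others.

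The library labelled null lung 1 stood apart from the other null lungs in many of these genes. It was the highest of the 3 null lungs for 23 of the 37 genes and the lowest for 12. Oxct1 was at 56.4, 62.4 and 58.6 CPM in WT lung and 270, 98.6 and 68 CPM in null lung. Bdh1 was at 1.95, 1.29 and 1.08 CPM in WT and 14, 2.75 and 1.9 CPM in null lung. Ppara was at 6.6, 5.37 and 6.73 CPM in WT and 16.9, 5.98 and 10.8 CPM in null lung (0.86, edgeR adjusted p = 0.237). In each of these the first null value, from null lung 1, was the highest. It was the lowest for Angptl4, at 76.2, 69.8 and 99.5 CPM in WT and 8.1, 38.1 and 52.3 CPM in null lung.

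Without null lung 1, with 3 WT against 2 null libraries, 12 of the 36 genes were called lower and 3 higher, against 37% of the 15885 genes tested in that fit (19% lower and 18% higher). The median log2 fold change was then −0.19 over the 36 genes and −0.01 over all genes. Some markers of cell types also differed in the remaining null lungs. In this fit 9 of 13 striated muscle markers were called higher and 0 lower, summing to 710 and 572 CPM in null lungs 2 and 3 against 257 to 416 CPM in WT. Of 10 neutrophil markers 5 were higher and 1 lower (619 and 617 CPM against 291 to 456 CPM). Of 20 hepatocyte markers 1 was higher and 0 lower, with null lung 3 within the WT range (1950 and 1310 CPM against 558 to 1350 CPM). Of 12 lung epithelium markers 1 was higher and 2 lower, and of 9 erythroid markers 2 were higher and 1 lower. Of 9 macrophage markers 2 were higher and 0 lower. Of 5 fat-cell markers 2 were higher and 1 lower, and of 6 bile duct markers 2 were higher and 2 lower. The part of these cells in the lung values was not tested. In the carnitine shuttle Cpt1a (−0.88, edgeR adjusted p = 0.00127) and Slc25a20 (−0.75, edgeR adjusted p = 0.00316) were lower. Among the genes of the lipid droplet and lipolysis, Plin2 (−0.68) and Angptl4 (−0.86) were lower and Pnpla2 higher (1.46, edgeR adjusted p = 0.000782). In electron transfer Etfb (−0.55) and Etfdh (−0.43) were lower, in peroxisomes Hsd17b4 (−0.57), and among thioesterases Acot2 (−0.78). Of the mitochondrial cycle Decr1 (−0.75), Eci1 (−0.62), Acads (−0.32) and Hadha (−0.31) were lower. Acsl1 (0.89) and Oxct1 (0.48) were higher. Several changed sign on leaving out this library: Acads, Hadha, Eci1, Etfb and Etfdh had log2 fold changes of 0.23, 0.12, 0.06, 0.03 and 0.16 with it. The genes not called without it ranged from −0.76 (Acaa1b) to 0.82 (Fabp1), the latter at 2.02 and 0.683 CPM in null lungs 2 and 3.

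**Figure D4:**
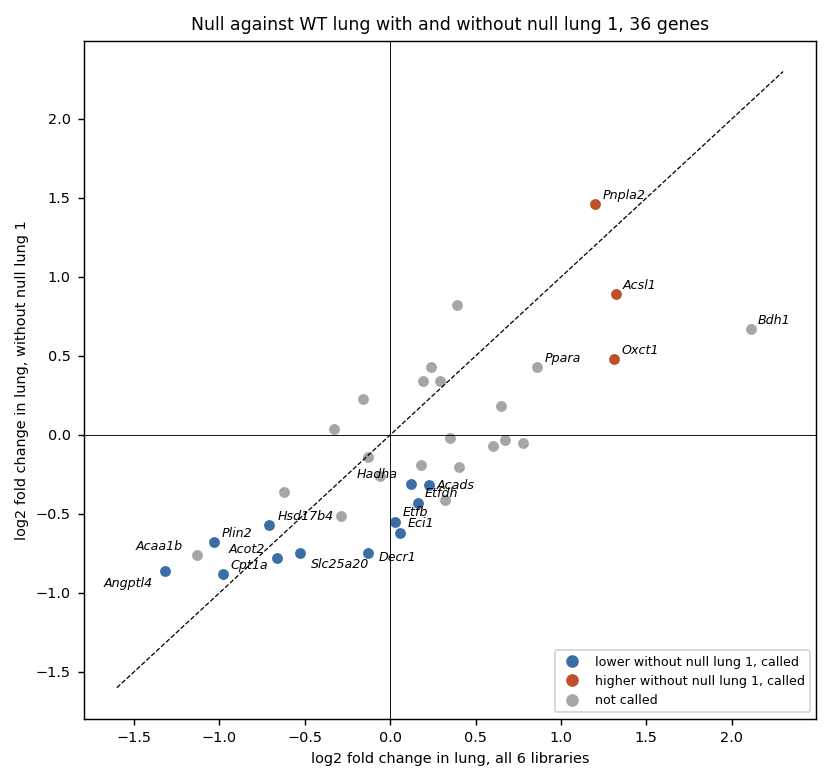
Log2 fold change of null against WT lung with all 6 libraries (horizontal) and without the library labelled null lung 1 (vertical) for the 36 genes tested, colored by the call without it. Points on the dashed line have equal values. Pnpla2 stays high (1.2 and 1.46) and Cpt1a low (−0.98 and −0.88), while Acads, Hadha, Eci1, Etfb and Etfdh lie above 0 with the library and below 0 without it.

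The genes called in the separate comparisons overlapped between tissues. Of the 13 genes called lower in null liver and the 12 called lower in null lung without null lung 1, 6 were in both: Plin2, Cpt1a, Slc25a20, Etfb, Etfdh and Hsd17b4. They made up 46.2% of the liver list and 50% of the lung list. Over the 13929 genes tested in both fits, 999 were called lower in both, which was 53.9% of those lower in liver and 36.3% of those lower in lung. The share of the liver list was thus below that of all genes and the share of the lung list above it. Pnpla2 was higher in both. Some genes were in 1 list only, among them Cpt2, Ehhadh, Acot1 and Acaa1b in liver and Decr1, Eci1 and Angptl4 in lung, but such a gene is not shown to differ between tissues without the next test.

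The third comparison asked whether the difference between null and WT was unlike in the 2 tissues. It was an interaction over all 12 libraries (lung effect minus liver effect). With all libraries 0 of the 37 genes were called by edgeR, against 0.371% of 16155 genes tested (0.13% higher and 0.241% lower), and 6 had an unadjusted p below 0.05, against 13.9% of all genes. DESeq2 called 1, Ehhadh (higher), against 3.94% of the 15473 genes to which it gave an adjusted p (1.88% higher and 2.06% lower). Without null lung 1, 2 of the 37 were called higher and 1 lower, against 5% of 16257 genes (2.29% higher and 2.71% lower). Ehhadh had a difference of 1.39 (SE 0.32, edgeR adjusted p = 0.0363). In lung it was low, at 7.01, 6 and 4.88 CPM in WT and 6.68, 6.95 and 8.17 CPM in null, with overlapping genotypes, while in liver it fell. Acot1 had a difference of 1.06 (SE 0.22, edgeR adjusted p = 0.0244). It was at 80.2, 77 and 102 CPM in WT lung and 27.6, 92 and 86.6 CPM in null lung, where the low value belonged to null lung 1. Angptl4 had a difference of −1.23 (SE 0.26, edgeR adjusted p = 0.0263), with null above WT in liver and below WT in lung. The same 3 genes were called when null liver 1 was left out as well, at 1.19, 1.05 and −1.26, against 5.18% of 16216 genes (2.25% higher and 2.93% lower). With genotype and replicate number together as a block and both libraries left out, they were called again together with Ppara (0.98, SE 0.22, edgeR adjusted p = 0.0341). This made 3 higher and 1 lower, against 6.13% of all genes (2.58% higher and 3.55% lower). With the block and all 12 libraries edgeR called 0 of the 37 and 0 of all genes. An unadjusted p below 0.05 by edgeR was found for 5 of the 37, a count not set against all genes. The adjusted p of Ehhadh, Acot1 and Angptl4 were 0.135, 0.706 and 0.273 by edgeR.

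The last comparison asked where the pathway is expressed without the deletion. Between WT liver and WT lung 35 of the 37 genes were called, 31 higher and 4 lower in liver, against 77% of the 15635 genes tested (37.2% higher and 39.8% lower). The same number, 35, had an unadjusted p below 0.05, against 79.6% of all genes. The libraries of the 2 tissues did not overlap in 34 of the 37, against 81.3% of all genes. The median log2 fold change (liver against lung) was 2.29 over the 37 genes and −0.04 over all genes. Pnpla2 (0.12) and Acot2 (−0.04) were not called.

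The 4 genes highest in liver relative to lung were Fabp1, Slc27a2, Bdh1 and Ehhadh. Fabp1 was at 1.74, 0.211 and 0.243 CPM in WT lung and 859, 1880 and 1050 CPM in WT liver (10.68, SE 0.86, edgeR adjusted p = 2.72e-06). Slc27a2 was at 2.31, 0.658 and 0.684 CPM in WT lung and 855, 881 and 731 CPM in WT liver (9.36, SE 0.52, edgeR adjusted p = 2.13e-07). WT lung 1 had the highest level of both genes among the WT lungs, and it also held the most hepatocyte markers of them, 1350 CPM against 558 and 653 CPM. The part of liver RNA in these lung values was not tested. Bdh1 differed by 7.56 (SE 0.28) and Ehhadh by 7.12 (SE 0.23), from the levels given above. Ppara differed by 5.50 (SE 0.15) and Cpt1a by 2.41 (SE 0.15).

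The 4 genes lower in liver were Cd36, Lipe, Oxct1 and Acot1. Cd36, which in lung is also made by capillary endothelium and macrophages, was at 193, 201 and 160 CPM in WT liver and 764, 857 and 1000 CPM in WT lung (−2.23, SE 0.17, edgeR adjusted p = 1.59e-06). Lipe was at 18.9, 14.7 and 16.8 CPM in WT liver and 29.8, 25.9 and 33.4 CPM in WT lung (−0.81, SE 0.13). Oxct1, which liver is known to make little of, was at 30.7, 41 and 34.5 CPM in WT liver and 56.4, 62.4 and 58.6 CPM in WT lung (−0.73, SE 0.11). Acot1 overlapped between the tissues and differed least (−0.39, SE 0.15, edgeR adjusted p = 0.0409). Its call was lost without WT liver 2, WT liver 3 or WT lung 3, while the other 34 held whichever library was left out.

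**Figure D5:**
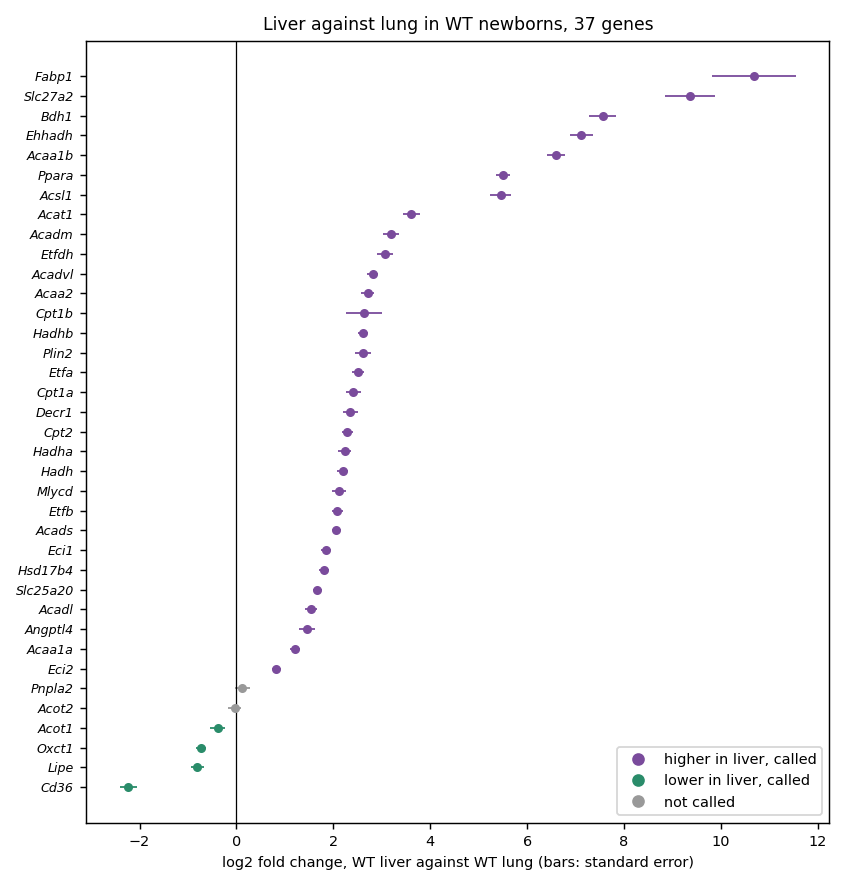
Log2 fold change of WT liver against WT lung (horizontal) for the 37 genes in order, with bars for the standard error (3 libraries a tissue). Values run from −2.23 (Cd36) to 10.68 (Fabp1), with 31 genes called higher in liver, 4 called lower and 2 not called.

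Per length of transcript (mean CPM per kilobase of exon ± SD, n = 3), the order of the genes in WT liver was led by Fabp1, at 2290 ± 986 CPM per kilobase. Acaa2 followed at 617 ± 18.3, then Ehhadh at 278 ± 47.5, Etfb at 274 ± 30.7 and Acat1 at 254 ± 40.2 CPM per kilobase. At the other end were Lipe at 2.85 and Cpt1b at 0.204 CPM per kilobase. Ehhadh, Etfb and Acat1 did not differ beyond their spread. In null liver Fabp1 was at 1360, Acaa2 at 682, Acat1 at 224 and Ehhadh at 135 CPM per kilobase. In WT lung Cd36 led, at 244 CPM per kilobase, with Acaa2 at 94.9 and Acadl at 76.4.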

How the data were processed

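The 37 genes, the wider list of 122 symbols (121 of them in the files), the marker lists and the tests were chosen with earlier results of these data known. Of the wider list, genes are named only where they are among the 3 highest or 3 lowest called in a genotype comparison, or where a result is discussed. Some genes of the pathway are not reported here. Per the labels, TruSeq stranded poly(A) libraries were sequenced, and the study gives paired reads of 75 bases. The submitters' processing notes name FastQC, STAR 2.5.2a, DESeq2 and mm10. The counter, the annotation and the strand setting are not given in the sources used here, so overlapping and antisense genes are uncertain. The values are whole-number counts per gene symbol, 1 file a library, as deposited by the authors, with 27 rows in each file named like dates.

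Counts were filtered with filterByExpr, scaled by TMM and tested with the quasi-likelihood test of edgeR 4.0.16 in R 4.3.3, adjusted over all genes tested. Null was compared with WT on the 6 libraries of a tissue, tissues on the 6 WT libraries and the interaction on all 12. DESeq2 1.42.0, other scalings and filters, and each library left out were tried. The code was tested on simulated data. Exon lengths and shared 75-base windows are from GENCODE M21 (mm10) and promoters from RefSeq.

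Libraries of the same number in liver and lung deviated together within a genotype (correlation 0.184 to 0.468 over genes). The number was therefore also used as a block in the tissue fit. In the interaction fit the block was genotype and number together, so that WT and null libraries never shared a block. Blocking on the number was tried within each tissue too, although it did not pair WT with null there. No pair of libraries of a group agreed within sampling noise (chi-square per gene 15.4 or more). Counting error is the only error that floors in CPM cover.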

Additional observations from a re-analysis of the deposited data

Results flagged for a closer look

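Angptl4, the inhibitor of lipoprotein lipase, lay on opposite sides of WT in the 2 tissues without overlap, but was called in neither with all libraries. All 3 null livers lay above the WT livers (0.38 on the log2 scale, edgeR adjusted p = 0.0831) and all 3 null lungs below the WT lungs (−1.32, edgeR adjusted p = 0.243). The difference, lung effect minus liver effect, was −1.70 with all 12 libraries (SE 0.68, edgeR adjusted p = 0.308), which missed the threshold, and −2.02 with the replicate block (edgeR adjusted p = 0.273). It was −1.23 without the library labelled null lung 1 (edgeR adjusted p = 0.0263).

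Acot4, a peroxisomal thioesterase of the wider list, was at 49.5, 61.1 and 51.4 CPM in WT liver and 15.2, 20.4 and 14 CPM in null liver (−1.70, edgeR adjusted p = 0.00201). In lung it was near the limit of detection, at 0.419 to 0.527 CPM in WT and 0.404 to 0.628 CPM in null (0.01). The difference between tissues was 1.70 (SE 0.30, edgeR adjusted p = 0.049). It was 1.5 without null lung 1 (edgeR adjusted p = 0.0198), and with the block it stayed at 1.70 but lost its call (edgeR adjusted p = 0.127).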

How the results depend on the processing

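Of the 37 genes 14 were called in liver. With all 12 libraries in 1 fit there were 6. Leaving out 1 library gave 9 to 14, with 9 without WT liver 1 and 9 without WT liver 3. The direction split stayed 1 higher and 13 lower with DESeq2 size factors within edgeR. In lung 0 were called, against 6 with DESeq2, 1 with upper-quartile factors, 1 with at least 10 counts in every library, 6 with all 12 libraries in 1 fit and 17 with DESeq2 with null lung 1 left out (chosen after seeing the data). Leaving out 1 lung library gave 0 to 15, and null lung 1 was the library that gave 15. For the interaction 0 were called, against 1 with DESeq2. It was 3 with null liver 1 and null lung 1 left out and 4 with the replicate block as well, both chosen after seeing the data. Leaving out 1 library gave 0 to 3, with 3 without null lung 1. Between WT tissues the count was 33 to 35 in all alternatives. By edgeR the share of all genes called was 26.9% in liver, 0.327% in lung and 37% in lung without null lung 1. By DESeq2 it was 15.1% in lung. For the interaction it was 0.371% by edgeR, 3.94% by DESeq2 and 5% without null lung 1. With null liver 1 left out as well it was 5.18%, and 6.13% with the block added. The other counts in this paragraph were not set against all genes and describe only the 37.

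The replicate number did not pair WT with null libraries of a tissue (correlation −0.043 to 0.143). The replicate block gave 13 called genes in liver, 0 in lung, 0 for the interaction and 35 between WT tissues. Scaling to hepatocyte markers moved the median of all genes in liver from 0.02 to −0.13 and gave 12 called genes. For the interaction with the block, 0 of all genes were called as well. The remaining counts with the block, and the count with hepatocyte scaling, were not set against the share of all genes called in the same fit.

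In lung, 5 of the 37 genes were positive with all libraries and called lower without null lung 1. Over the fits that left out 1 library, Acads ran from −0.32 to 0.45, Hadha from −0.31 to 0.30, Eci1 from −0.62 to 0.34, Etfb from −0.55 to 0.28 and Etfdh from −0.43 to 0.41. DESeq2 with null lung 1 left out gave Acads −0.30, Hadha −0.29, Eci1 −0.59, Etfa −0.39, Etfb −0.53 and Etfdh −0.41. The cause was not tested.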
